A study of Mus musculus with 12 samples.

Results

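The genes described here form the pubertal GnRH axis, with the sex steroid receptors that act on it: Gnrh1, Kiss1, Tac2, Tacr3, Esr1, Esr2 and Pgr. Every non-control probe whose gene name on the array equals 1 of these symbols was taken, which gave 10 probes for 7 of 27827 gene names, among 41174 probes in all. Hypothalamic RNA of male ICR mice, an outbred stock, was hybridized to 12 1-color Agilent arrays, each with a pool of RNA from 1 to 3 mice. The mice were 3 weeks old at the start and had both drinking tubes filled with water for 5 days. After that, water-only controls kept water in both tubes, and alcohol mice had free choice between water and a solution of 5% or 10% alcohol. The study's design text ends drinking on day 57, and the sample labels place the sacrifice on day 51.

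The labels name 4 groups of 3 pools: water-only, low alcohol drinkers, early high alcohol drinkers and late high alcohol drinkers. The 3 water pools held 9 mice, and the 9 alcohol pools held 19. The labels give neither the intake that parts low from high, nor the time that parts early from late, nor the alcohol concentration of each pool. The paper gives intakes for pools of less and more consumption, and the concentrations in each. Its pool names are not in the labels. By the paper, each pool of less consumption held 3 mice and each pool of more consumption fewer. No allele and no other agent was part of the design. The p-values below measure the spread between pools, and the tests weigh all pools alike, whatever their number of mice.

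GnRH neurons are few, lie scattered through the preoptic area, and send axons to the median eminence, where the decapeptide is released in pulses that drive the pituitary. Kisspeptin, made from Kiss1 in the arcuate nucleus and the anteroventral periventricular area, excites them. Neurokinin B, made from Tac2, acts through its receptor Tacr3 on the arcuate kisspeptin neurons, and steroids from the gonads feed back on these cells through the receptors of estrogen and progesterone. At puberty the pulses of GnRH strengthen, and alcohol drinking in these mice spanned that period.

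The 60-base probes of Gnrh1 and Kiss1 and the brighter probe of Pgr are given because they show which part of these messages the values below measure. They lie in protein-coding sequence, with 2 of 3 reading frames open along the whole probe, and positions are those of mm9 in the array files, which carry no exon annotation. The Gnrh1 probe lies on the plus strand at chr14:68364473-68364532, and its capitals mark the in-frame codons of the signal for cleavage and amidation that follows the decapeptide in the GnRH precursor. The Kiss1 probe is on the plus strand at chr1:135225978-135226037 and the Pgr probe on the plus strand at chr9:8961434-8961493. No letters are marked in these.
Gnrh1: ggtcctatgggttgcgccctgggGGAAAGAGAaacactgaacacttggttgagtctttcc
Kiss1: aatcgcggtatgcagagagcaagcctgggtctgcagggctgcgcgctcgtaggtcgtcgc
Pgr: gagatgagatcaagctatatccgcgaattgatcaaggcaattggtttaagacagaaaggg

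The other probes of the 7 genes were at chr10:127166600-127168659 (Tac2, plus strand), chr3:134596904-134596963 (the brighter Tacr3 probe, plus), chr3:134524150-134592878 (the dimmer Tacr3 probe, plus), chr10:5343056-5343115 and chr10:5345046-5345105 (Esr1, minus), chr12:77222311-77222370 (Esr2, minus) and chr9:8948165-8948224 (Pgr, plus). The Tac2 probe and the dimmer Tacr3 probe cross an intron, since their 60 bases span 2060 and 68729 bases of genome. The Esr1 probe at chr10:5343056-5343115 and the Esr2 probe were each printed 10 times on every array, and the remaining probes once. Where a gene had more than 1 probe, the one with the highest mean signal stands for it, and the other is called the dimmer probe.

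Signals are given below as log2 of the processed intensity minus the 75th percentile of the same array, so that 0 is the level of that percentile. A signal depends on the probe, so levels are compared between pools and never between genes. The array software calls a spot well above background or not. By that call 6 of the 10 probes were measured on all 12 arrays, those of Gnrh1, Kiss1, Tac2 and Pgr and the brighter probes of Tacr3 and Esr1. The Esr2 probe was well above background, on over 50% of its spots, on 5 arrays. The dimmer Tacr3 probe was so on 2 arrays, and the dimmer probes of Esr1 and Pgr on 0. The unscaled signal of the Pgr dimmer probe lay between 4.29 and 12.1, and it was not tested in any comparison.

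The arrays lay on 3 slides. All water pools were on slide 1, together with pool 1 of the low drinkers. The remaining low drinkers, pools 2 and 3, shared slide 2 with pools 1 and 2 of the early high drinkers. Pool 3 of the early high drinkers was on slide 3, as were all late high drinkers. Slide 1 was scanned on another day than slides 2 and 3. The array of low drinker pool 2 stood apart at the dim end, where the lower quartile of its spot signals was 63.2 against 22.3 to 34.0 on the other 11 arrays. The share of the 43379 spots called well above background ran from 67.0% to 79.3% by array, with 0 saturated. Of 10 hypothalamic peptide genes set as a check of the tissue, 9 had a probe (Crh had none under that name), and all 9 were well above background on every array. Their summed signal, with the 75th percentile as 1, was 183 to 220 in the water pools, 196 to 229 in the low, 198 to 233 in the early high and 211 to 238 in the late high drinkers. Lists of neighboring tissue and other cells, summed the same way, lay over the 12 pools at 21.7 to 32.3 (thalamus, 7 of 7 genes well above background throughout), 34.0 to 39.8 (striatum, 7 of 7), 1.18 to 1.54 (cortex, 3 of 6), 1.64 to 2.49 (medial amygdala and bed nucleus, 4 of 6, with Otp on 0 arrays), 2.32 to 3.34 (choroid plexus, 4 of 7) and 188 to 244 (oligodendrocytes, 6 of 6).

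Gnrh1 encodes the precursor of GnRH itself. Its signal was -1.03, -1.47 and -1.27 in water pools 1 to 3, and -0.85, -0.85 and -1.43 in the low drinkers. It was -1.47, -1.34 and -0.49 in the early high drinkers, and -1.17, -1.98 and -1.60 in the late high drinkers. Early high drinker pool 3 was the highest of the 12 pools and late high drinker pool 2 the lowest, 2.79-fold apart, and all 4 groups overlapped. In bulk tissue, fewer cells that make a message and less of it per cell cannot be told apart. The group means ran from low (-1.04 ± 0.33, SD, n = 3) through early high (-1.10 ± 0.53) and water (-1.26 ± 0.22) to late high (-1.58 ± 0.41), and no neighbors in this order differed beyond their spread. The SD over the 12 arrays, 0.40, was above that of 93.4% of the 26031 probes that were well above background and had a value on every array, whose median SD was 0.13.

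Kiss1 encodes kisspeptin. Its signal was -2.81, -2.64 and -2.70 in the water pools and -2.50, -2.29 and -2.47 in the low drinkers. It was -2.53, -2.75 and -3.0 in the early high and -2.55, -2.87 and -3.14 in the late high drinkers. On this scaled signal the 3 low drinker pools were above each of the other 9, while water, early high and late high drinkers overlapped. The order of the means was low (-2.42 ± 0.11), water (-2.71 ± 0.088), early high (-2.76 ± 0.24) and late high (-2.85 ± 0.30). Low drinkers and water were the only neighbors without overlap in this order. Low drinker pool 2, the array with raised dim signals, was the highest.

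Tac2 encodes neurokinin B and was the gene with the narrowest values within a group. Its signal was 2.48, 2.47 and 2.48 in the low drinkers (SD 0.0062), and 2.43, 2.65 and 2.63 in the water pools. It was 2.63, 2.62 and 2.34 in the early high and 2.40, 2.69 and 2.27 in the late high drinkers. The low drinkers lay inside the range of each other group, so all groups overlapped. The means of water (2.57 ± 0.12), early high (2.53 ± 0.16), low (2.47) and late high drinkers (2.45 ± 0.22) did not differ beyond their spread.

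Tacr3 encodes the receptor of neurokinin B. On its brighter probe the signal was -0.31, -0.45 and -0.43 in the water pools and -0.32, -0.45 and -0.51 in the low drinkers. It was -0.40, -0.45 and -0.48 in the early high and -0.87, -0.66 and -0.54 in the late high drinkers. Each of the 3 late high drinker pools was below each of the other 9 pools, and water, low and early high drinkers overlapped. The unscaled signals of the late high drinkers, 1007 to 1278, overlapped with each other group. The other groups were at 1155 to 1394 in water, 1075 to 1388 in low and 1143 to 1310 in early high drinkers. The means ran in the order water (-0.40 ± 0.075), low (-0.43 ± 0.097), early high (-0.45 ± 0.041) and late high (-0.69 ± 0.17), and early and late high drinkers were the only neighbors without overlap. The dimmer Tacr3 probe was well above background only in low drinker pool 2 and late high drinker pool 1, so it gives no second measure of the difference.

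Esr1 encodes estrogen receptor alpha. Its signal was -0.84, -0.75 and -0.73 in the water pools and -0.76, -0.79 and -0.77 in the low drinkers. It was -0.58, -0.64 and -0.83 in the early high and -0.53, -0.51 and -0.91 in the late high drinkers. The high drinkers held both the 4 highest pools and the lowest, so the groups overlapped. The means were -0.65 ± 0.23 in late high, -0.68 ± 0.13 in early high, -0.78 ± 0.059 in water and -0.78 ± 0.013 in low drinkers, and no neighbors differed beyond their spread. The 10 spots of this probe give the error within an array: their SD was 0.030 to 0.075, with a median of 0.056, against an SD of 0.13 between the 12 array means.

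Esr2 encodes estrogen receptor beta and was near the background on these arrays. Of its 120 spots, 64 were well above background. Its signal was -5.66, -5.65 and -5.48 in the water pools and -5.65, -4.84 and -5.18 in the low drinkers. It was -5.51, -5.44 and -5.88 in the early high and -5.60, -5.38 and -5.70 in the late high drinkers. Low drinker pools 2 and 3 were the highest, but in low drinker pools 1 to 3 only 3, 2 and 1 of the 10 spots were well above background, so no fold is given against them. The SD between spots was 0.45 in pool 2 and 0.66 in pool 3, and with the spots under the signal/noise limit kept, the signals were -4.95 and -5.48. The means of low (-5.22 ± 0.41), late high (-5.56 ± 0.17), water (-5.60 ± 0.10) and early high drinkers (-5.61 ± 0.23) overlapped in their ranges.

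Pgr encodes the progesterone receptor, which estrogen induces. Its signal was -4.32, -4.24 and -4.23 in the water pools and -4.30, -3.16 and -3.93 in the low drinkers. It was -4.17, -4.0 and -4.32 in the early high and -4.15, -4.18 and -4.39 in the late high drinkers. Low drinker pool 2 was the highest and pool 3 the next, while low drinker pool 1, on the slide of the water pools, was within their range. The means were -3.80 ± 0.58 in low, -4.16 ± 0.16 in early high, -4.24 ± 0.13 in late high and -4.26 ± 0.046 in water, with overlap between all neighbors.

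**Figure D1:**
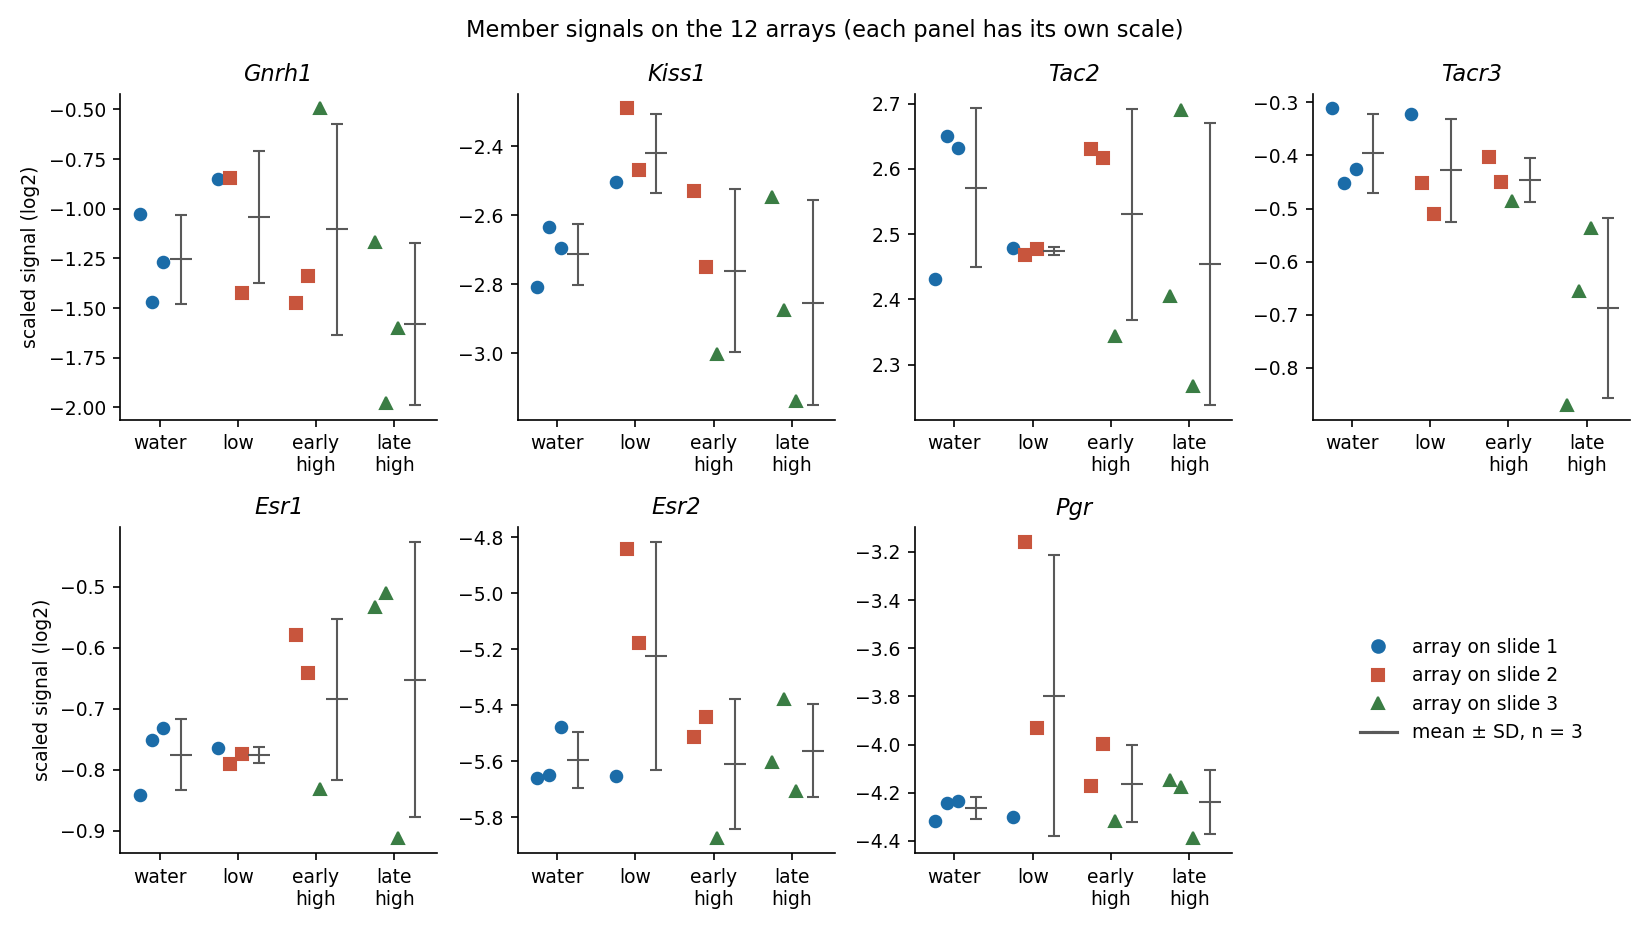
Scaled log2 signal (y axis) of the 7 genes in the 4 groups (x axis), 1 point per pool, with shape and color for the slide and the group mean ± SD (n = 3) beside the points. The late high drinkers lie lowest for Tacr3, from -0.87 to -0.54, and the low drinkers highest for Kiss1, from -2.50 to -2.29, while low drinker pool 2 lies apart for Pgr at -3.16.

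**Figure D2:**
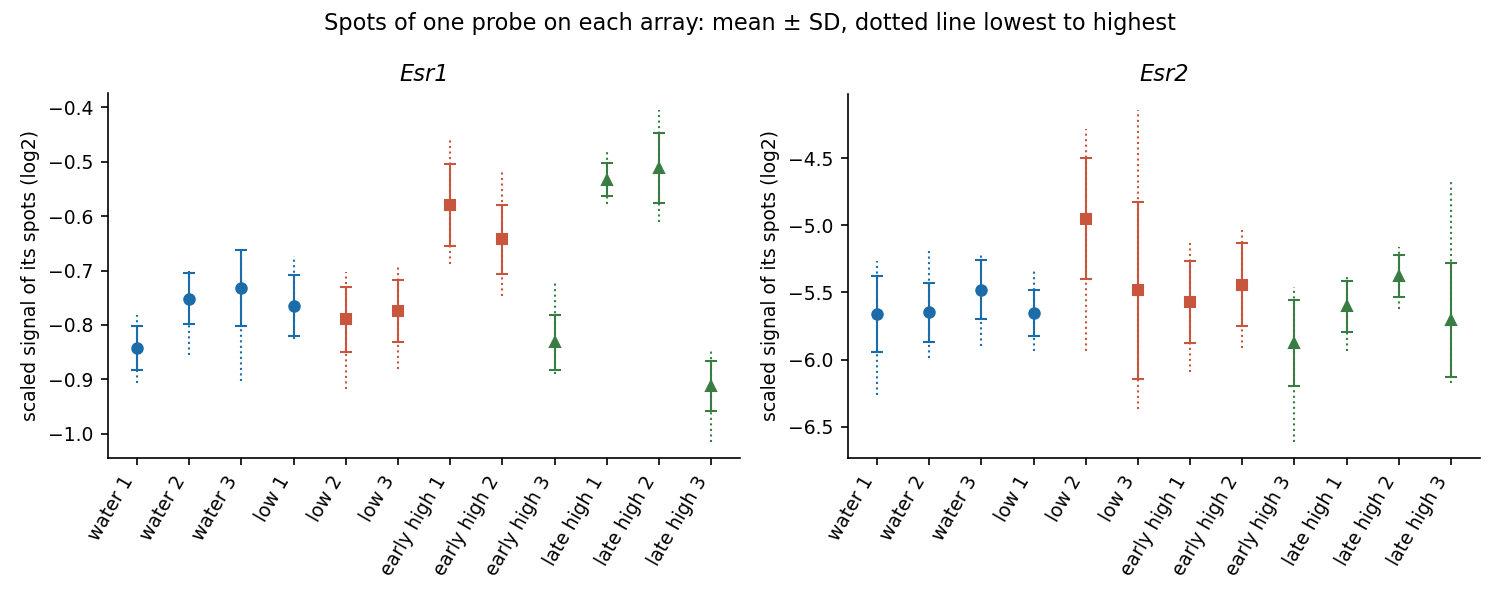
Scaled log2 signal of the 10 spots of the Esr1 and Esr2 probes (y axis) on each array (x axis), as mean ± SD over spots, with a dotted line from the lowest to the highest spot and all spots kept. Spots of Esr1 differed with an SD of at most 0.075, and spots of Esr2 with an SD of up to 0.66 in low drinker pool 3.

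The first comparison asked whether these genes differed between alcohol and water-only mice. Changes were small and none passed the test. With limma and Benjamini-Hochberg adjustment over 32376 probes, 0 of the 9 member probes tested passed an adjusted p of 0.05, as did 0% of all probes. At an unadjusted p under 0.05 there were 0 of 9, against 5.53% of all probes. Of the 7 member probes with a value on every array, 0 had groups without overlap, against 0.982% (higher) and 0.325% (lower) of all such probes. The methods' t-test also called 0 of the 9, and its unadjusted p for the 7 genes was 0.233 to 0.961.

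Gnrh1 differed by 0.014 (SE 0.26), or 1.01-fold, with a 95% interval of 0.681-fold to 1.5-fold. For Kiss1 the difference was 0.035, with an interval of 0.804-fold to 1.31-fold. Neither interval shows that the groups were equal.

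The intervals were narrower for the probes with less spread. Tac2 was 0.943-fold the water level (interval 0.823 to 1.08), with 6 of 9 alcohol pools below the water mean. Tacr3 was 0.917-fold (0.793 to 1.06), with 8 of 9 below, and Esr1 1.05-fold (0.921 to 1.20), with 6 of 9 above. Their log2 differences were -0.085 for Tac2, -0.12 for Tacr3 and 0.071 for Esr1. With 1 array left out these ran from -0.15 to -0.045, from -0.15 to -0.081 and from 0.037 to 0.097.

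Pgr was 1.15-fold (0.838 to 1.57), with low drinker pool 2 as the highest, and its log2 difference of 0.20 was 0.085 without that pool. No fold is given for Esr2, which was well above background in 3 of 9 alcohol pools. The limma adjusted p of the 7 genes was 0.828 (Tacr3) to 0.995 (Gnrh1). The exact permutation test over 220 regroupings (2-sided) gave p = 0.223 for Tacr3 and p = 0.964 for Gnrh1, with 0.00455 as the smallest p this design allows. Of the 7 genes 5 had a higher and 2 a lower mean in alcohol pools, and the median difference was 0.035 against 0.027 over all probes tested. Slide 1, the only slide with water pools, held 1 alcohol pool, low drinker pool 1, so the comparison within a slide rests on that array. There Tacr3 was 0.075 above the water mean and Pgr 0.037 below it, each opposite to its difference over all arrays.

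**Figure D3:**
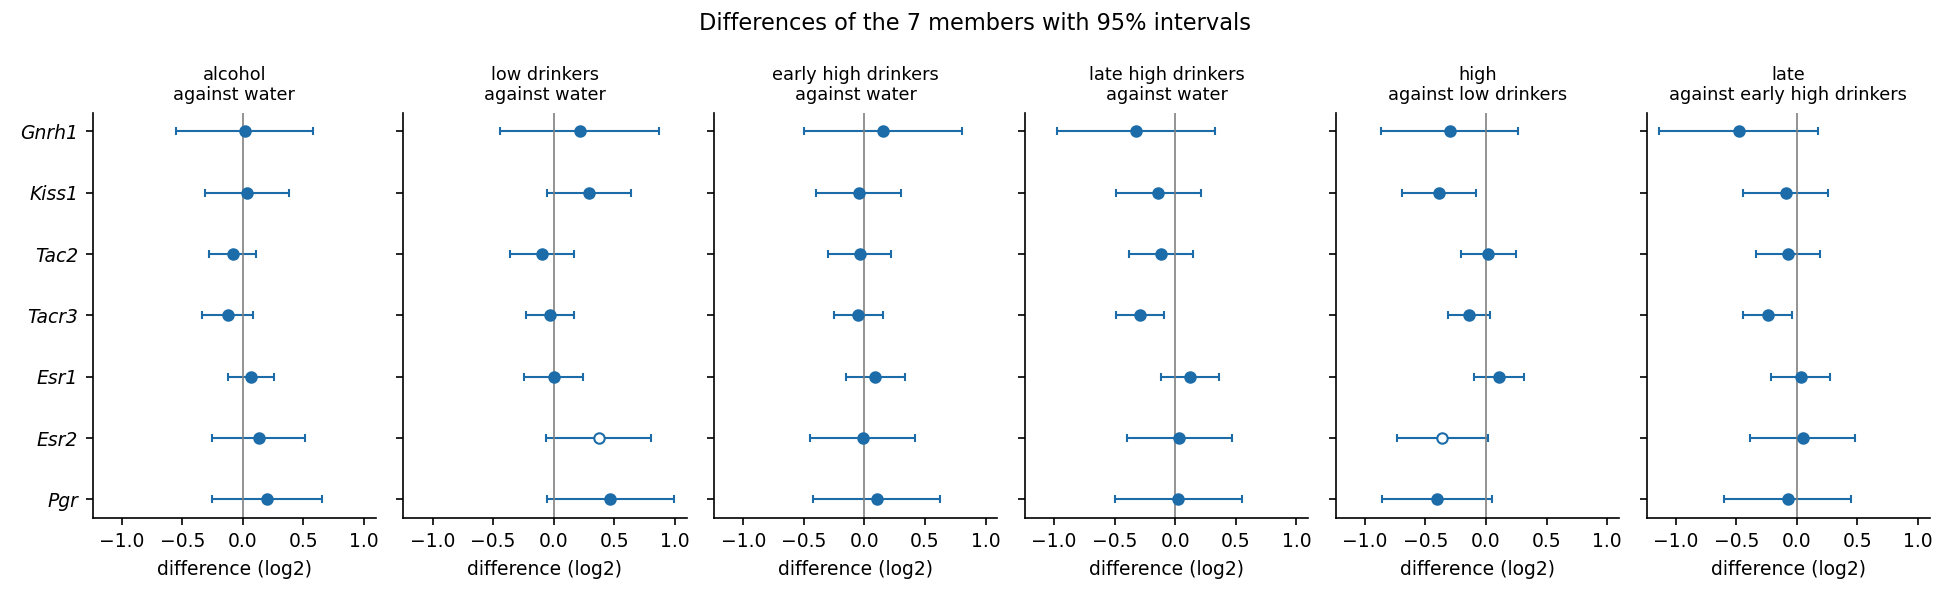
Log2 difference (x axis) of the 7 genes (y axis) in the 6 comparisons, with 95% intervals from limma. Esr2 has an open point where low drinkers are compared, in whom it was not well above background. Intervals of Kiss1 for high against low drinkers (-0.69 to -0.083) and of Tacr3 for late high drinkers against water (-0.49 to -0.091) and against early high drinkers (-0.44 to -0.040) exclude 0 before adjustment over all probes.

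The 3 alcohol groups were each set against the same 3 water pools, so these comparisons share their controls. In the low drinkers 0 of 9 member probes had an adjusted p under 0.05 in limma (0.179% of all probes). At an unadjusted p under 0.05 there were 2 of 9 (9.15% of all probes), both higher (8.42%): the dimmer probes of Tacr3 and Esr1, neither of which was well above background in a water pool. Kiss1 was 1.23-fold the water level (interval 0.961 to 1.56, limma adjusted p = 0.613). It was the 1 of 8 member probes with complete values whose groups did not overlap upward (7.05% of such probes). Within slide 1, Kiss1 in low drinker pool 1 was 0.21 above the mean of the water pools and above each of them. Pgr was 1.38-fold (0.962 to 1.99, adjusted p = 0.588), and its difference of 0.47 was 0.15 without low drinker pool 2, 0.72 without pool 1 and -0.037 within slide 1. The list of pars tuberalis and tanycytes (6 of 6 genes well above background on every array) summed to 49.2 to 50.9 in the low drinkers and 45.0 to 46.2 in water. Most of this sum came from Chga, at a log2 signal of 5.55 to 5.62 in low drinkers and 5.43 to 5.47 in water. The ventromedial list (5 of 5) summed to at least 9.29 in the low drinkers and at most 9.30 in water. The part of these lists in the values of Kiss1 was not tested.

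In the early high drinkers 0 of 8 member probes passed the adjusted test in limma (0% of all probes) and 0 of 8 an unadjusted p under 0.05 (4.8%). Of the 7 with complete values, 0 had groups without overlap (10.9% of such probes higher and 5.51% lower). Their largest difference from water among the 7 genes was 0.15, in Gnrh1, with an interval of -0.50 to 0.81. In this group the mean of Gnrh1 rested on pool 3, since pools 1 and 2 were below the water mean.

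In the late high drinkers 0 of 9 passed the adjusted test in limma (0% of all probes). Tacr3 was the 1 of 9 with an unadjusted p under 0.05 (15.7% of all probes, 8.88% lower), and the 1 of 8 with complete values whose groups did not overlap downward (13.4%). It was 0.817-fold the water level (interval 0.712 to 0.939), with a limma p of 0.00895 and an adjusted p of 0.179. No water pool shared a slide with a late high drinker pool, so slide and group cannot be told apart in this pair directly. With the slide as a block, linked through the other groups, the difference was -0.072 in place of -0.29. Without scaling of the arrays it was -0.17, and the unscaled signals of the 2 groups overlapped. Marker lists moved with these groups without overlap: striatum summed to 34.0 to 34.9 in late high drinkers and 35.6 to 39.8 in water, and pars tuberalis and tanycytes to 47.4 to 55.8 and 45.0 to 46.2. The blood list, of which 3 of 4 genes had a probe and 2 were well above background throughout, summed to 24.4 to 36.2 in late high drinkers and 47.1 to 55.9 in water. The part of these lists in the difference of Tacr3 from water was not tested.

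High and low drinkers were compared next, to ask whether the amount consumed went with the level of these genes. Kiss1 was lower in high drinkers. Its 6 high drinker pools lay from -3.14 to -2.53, with a median of -2.81, all under the 3 low drinker pools. Without scaling the groups overlapped, with 315 in late high drinker pool 1 and 277 to 313 in the low drinker pools. The scaled mean of the high drinkers was 0.765-fold that of the low drinkers (log2 difference -0.39, SE 0.14, interval 0.620-fold to 0.944-fold). The limma p was 0.0178 and the adjusted p 0.241, and the exact permutation p was 0.0357 over 84 regroupings (2-sided, smallest possible 0.0119). Kiss1 therefore did not pass the test over all probes.

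Of the 9 member probes tested, 0 passed an adjusted p of 0.05 in limma (0.0744% of all probes), and Kiss1 was the 1 with an unadjusted p under 0.05 (15.5% of all probes, 12.2% lower). It was also the 1 of 7 with complete values and no overlap downward (2.97%). Kiss1 without low drinker pool 2 differed by -0.32 and no longer passed an unadjusted p of 0.05. Within slide 2, the mean of its 2 early high drinker pools was 0.26 below that of the 2 low drinker pools, with no overlap, and with the slide as a block over all arrays the difference was -0.19 (unadjusted p = 0.398).

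The anterior pituitary list, with 8 of 9 genes on the array and 5 well above background throughout, summed to 8.12 to 10.8 in the low, 2.05 to 4.50 in the early high and 5.01 to 8.22 in the late high drinkers. In the water pools it was 4.44 to 13.7, and none of the 8 genes was below background on all arrays. The arcuate list, with 7 of 7 genes well above background on every array, summed to 22.4 to 23.3 in water, 21.3 to 41.9 in low, 20.1 to 23.9 in early high and 18.7 to 22.7 in late high drinkers, with overlap between all groups. Its highest sum was that of low drinker pool 1, where Pomc was at 5.01 against 3.47 and 3.49 in pools 2 and 3. The part of these lists in the difference of Kiss1 between low and high drinkers was not tested.

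Of the other genes, Gnrh1 had a lower mean in high drinkers by 0.30, Pgr by 0.40 and Tacr3 by 0.14, with 95% intervals that held 0 (-0.87 to 0.27, -0.86 to 0.051 and -0.31 to 0.034). Tac2 differed by 0.018 (-0.21 to 0.25) and Esr1 by 0.11 (-0.10 to 0.32). The median of the 7 genes was -0.30 and that of all probes -0.056. With 1 array left out, the difference of Pgr was -0.084 without low drinker pool 2 and -0.66 without pool 1. That of Gnrh1 was -0.49 without low drinker pool 3 and -0.45 without early high drinker pool 3. Tacr3 differed by -0.085 without low drinker pool 1, and Esr1 by 0.17 without late high drinker pool 3. Without low drinker pool 1, 2 of the member probes were called at an adjusted p under 0.05 in limma, against 2505 of 31195 probes in all. They were the dimmer Tacr3 probe and Esr2, both at their highest on the array of pool 2 and neither well above background in most pools.

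**Figure D4:**
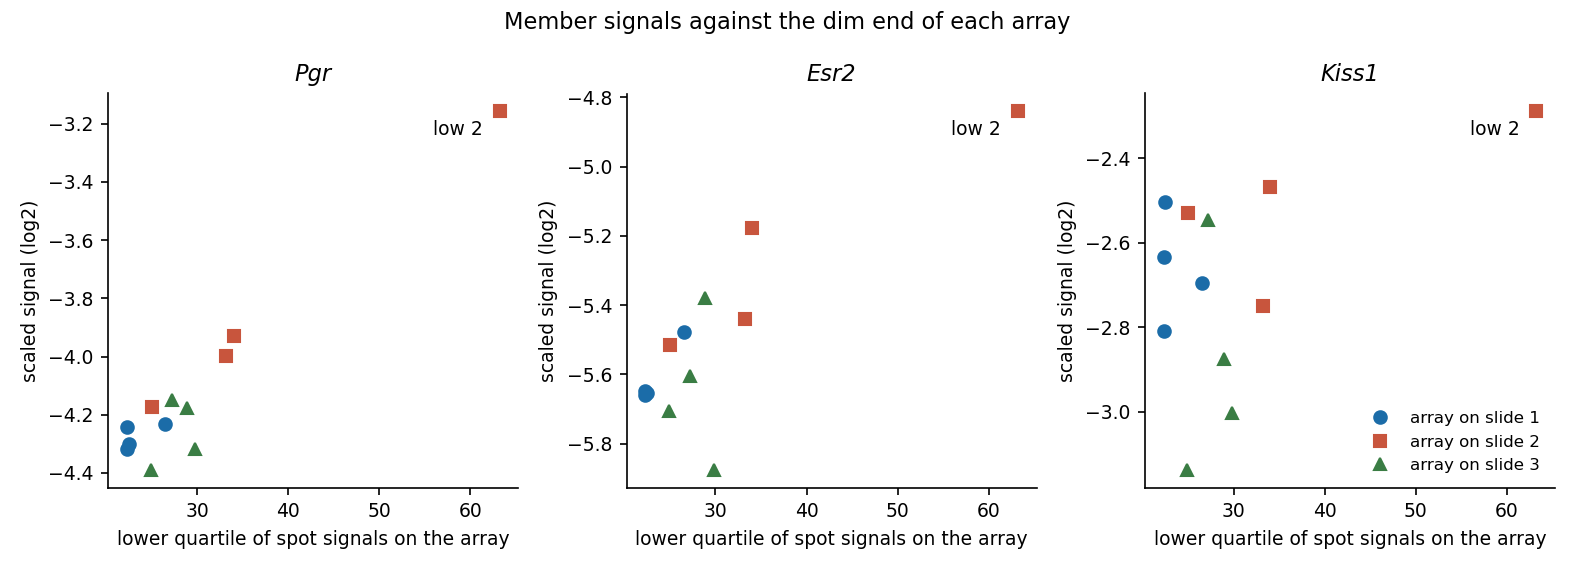
Scaled log2 signal of Pgr, Esr2 and Kiss1 (y axes) against the lower quartile of all spot signals on the same array (x axis, unscaled intensity), 1 point per array with the slide as shape and color. Low drinker pool 2 has a quartile of 63.2 and the highest signal for each of the 3 genes, and the other 11 arrays lie between 22.3 and 34.0.

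Late and early high drinkers were compared in turn, to ask whether the time of high intake went with the level of these genes. Tacr3 had the clearest separation, since its late high drinker pools (-0.87, -0.66 and -0.54) lay under the early ones (-0.40, -0.45 and -0.48). The mean was 0.846-fold (log2 difference -0.24, SE 0.090, interval 0.737-fold to 0.973-fold), with a limma p of 0.0234 and an adjusted p of 0.362. The exact permutation p was 0.1, the smallest that 3 pools against 3 allow. Of the 8 member probes tested, 0 passed the adjusted test in limma (0% of all probes), and Tacr3 was the 1 with an unadjusted p under 0.05 (12.1% of all probes, 8% lower). It was also the 1 of 7 with complete values and no overlap downward (13.3%).

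Within slide 3, the 3 late high drinker pools were below early high drinker pool 3 in Tacr3, with a mean difference of -0.20. Without late high drinker pool 1 the difference over all arrays was -0.15. Without scaling of the arrays it was -0.086 (limma, unadjusted p = 0.523), and the unscaled signals of late and early high drinkers overlapped. Gnrh1 differed by -0.48 (interval -1.13 to 0.18), and by -1.09 within slide 3, where the early pool was the one with the highest Gnrh1 of all. Without that pool the difference over all arrays was -0.17. For Kiss1 the difference was -0.093, for Tac2 -0.076, for Esr1 0.032, for Esr2 0.048 and for Pgr -0.076, with adjusted p of 0.828 to 0.941 in limma. Esr2 was well above background in 1 of 3 early and 2 of 3 late high drinker pools, so its value shows neither a size nor a direction. The median of the 7 genes was -0.076 against -0.032 over all probes.

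The blood list, at 24.4 to 36.2 in late high drinkers, summed to 41.1 to 48.1 in early high drinkers. The anterior pituitary list separated these groups too, at 5.01 to 8.22 in late high and 2.05 to 4.50 in early high drinkers. The preoptic list (7 of 7 genes well above background) summed to 12.9 to 14.5 in late high, 12.9 to 15.1 in early high, 13.2 to 15.5 in low drinkers and 14.2 to 15.3 in water. Their part in the values of Tacr3 was not tested.

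The members did not vary as 1 set over the 12 arrays. As a description, with the arrays sharing slides and dim signal, the pair with the highest Pearson correlation was Esr2 and Pgr (r = 0.91, 0.83 without low drinker pool 2), both dim. Tac2 and Esr1 had r = 0.62, Kiss1 and Pgr 0.67, and Kiss1 and Tac2 0.31. Gnrh1 was not above r = 0.31 with any other member and had r = -0.50 with Tac2. Tac2 and its receptor gene Tacr3 had r = 0.12.

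The pattern of Tacr3 was most like that of Srsf5 (r = 0.98), Rab7b (0.96) and Sdr39u1 (0.94), among 13898 gene symbols measured on all 12 arrays. Those 3 genes were lowest in late high drinker pool 1, as Tacr3 was. Kiss1 was most like Arl6ip1 (0.93), Brd8dc (0.93) and Nppa (0.92), all highest in low drinker pool 2. Pgr was most like Kcnn4 (0.98), Nkx6-3 (0.97) and Klhl31 (0.96), and Esr2 like Scgn, Krtap8-1 and Ly6g6e (0.92 each), and these 6 genes too were highest in low drinker pool 2. Gnrh1 was most like Aven (0.88) and Abcb1b (0.85), which were both highest in early high drinker pool 3. Tac2 was most like Ntsr1 (0.92), Znf512b (0.91) and Gdpd2 (0.89), and Esr1 like Tbc1d25 (0.92), Trim26 (0.91) and Dnah11 (0.90). All these genes were picked as the highest of many correlations over only 12 arrays, without a test. A highest or lowest array shared with the member goes with that choice and is no separate result.

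Genes around the axis were read from 5 lists, whose counts at an unadjusted p under 0.05 stand beside the share of all probes at that threshold. This share was 3.85% higher and 1.68% lower for alcohol against water, 3.3% higher and 12.2% lower for high against low drinkers, and 4.14% higher and 8% lower for late against early high drinkers. Of the peptide inputs and receptors of GnRH neurons, which hold the receptors of GnRH and kisspeptin, dynorphin and prokineticin 2, 13 of 14 were tested and 0 passed an adjusted p of 0.05 in alcohol against water. Prok2, a peptide of the clock output and of the migration of GnRH neurons, was the 1 with an unadjusted p under 0.05. Its signal was -1.21, -1.26 and -1.52 in the water pools, and -1.92 to -1.45 with a median of -1.62 in the alcohol pools. The groups overlapped by 1 alcohol pool, and the difference was -0.34 (SE 0.10, limma adjusted p = 0.819). The list's median was 0.017, near that of all probes, and in high against low and in late against early drinkers 0 of 13 had an unadjusted p under 0.05.

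Of the other sex steroid receptors and steroid enzymes, 17 of 17 were tested in late against early high drinkers, with 1 higher and 3 lower at an unadjusted p under 0.05 (12.1% of all probes in either direction). Among them were Paqr5, a membrane progestin receptor (0.33), Tspo, a mitochondrial protein tied to steroid synthesis (-0.24), and Hsd17b12, a hydroxysteroid dehydrogenase (-0.21). The limma adjusted p in this list was 0.335 or higher, and its median was -0.060. In high against low drinkers 2 of 17 were lower, Tspo by 0.22 and Pgrmc1, a progesterone-binding membrane protein named after its value was seen, by 0.15, with a list median of -0.11 against -0.056 over all probes. In alcohol against water 0 of 16 had an unadjusted p under 0.05.

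Of 14 coregulators of steroid receptors, 2 were higher in late than in early high drinkers at an unadjusted p under 0.05, against 12.1% of all probes in either direction and 4.14% higher. They were Ep300 (0.22) and Crebbp (0.17), a pair of histone acetyltransferases that bind nuclear receptors, and Crebbp was also the 1 higher in high than in low drinkers (0.18). The limma adjusted p was at least 0.378 and 0.222 in these comparisons, and 0 of 14 had an unadjusted p under 0.05 in alcohol against water.

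Of 16 genes tied to the timing of puberty, 2 were higher in alcohol than in water pools at an unadjusted p under 0.05, Pou2f1, a transcription factor (0.20), and Dlk1, a Notch ligand homolog named after its value was seen (0.18), both with a limma adjusted p of 0.819. In late against early high drinkers 2 were higher and 1 lower: Cbx7, a Polycomb protein (0.28), Igf1r, a growth factor receptor (0.20), and Nrg1, a ligand of ErbB receptors (-0.23). Nrg1 was also lower in high than in low drinkers (-0.24), where Cbx7 was higher (0.17). No adjusted p of this list was under 0.237 in high against low or 0.325 in late against early drinkers.

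Of 18 genes of GnRH neuron development tested, 3 were lower in high than in low drinkers at an unadjusted p under 0.05 (12.2% of all probes lower, 15.5% in either direction): Fgfr1 (-0.26), Msx1 (-0.26) and Fgf8, which GnRH neurons need to form, at -0.59 (SE 0.21, limma adjusted p = 0.246). Its signal was -2.84, -1.67 and -1.91 in the low drinkers, so that pool 1 was within the range of the high drinkers and pool 2 the highest. Msx1, a homeobox gene, was lower in late than in early high drinkers by 0.44 (adjusted p = 0.324), and Fgfr1, a receptor of Fgf8, by 0.30, while Sox2, named after its value was seen, was higher by 0.19. Six6, another homeobox gene, was higher in alcohol than in water pools by 0.25 (adjusted p = 0.819), as was Dlx5, also named after its value was seen, by 0.24. None of the 5 lists held a gene with an adjusted p under 0.05 in limma in any of the 6 comparisons.

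**Figure D5:**
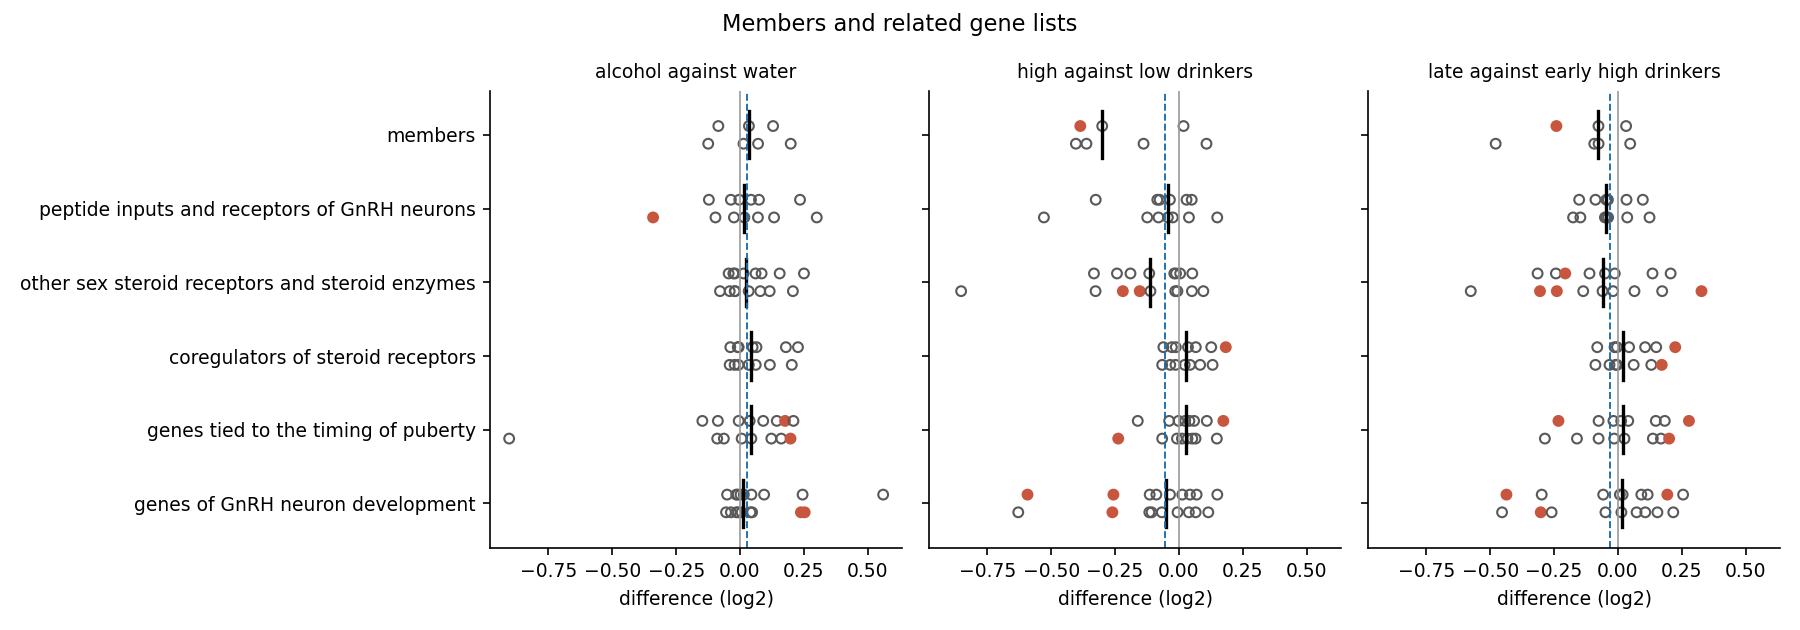
Log2 difference (x axis) of each gene of the 7 members and 5 related lists (y axis) in 3 comparisons, with filled points for an unadjusted limma p under 0.05, a black bar for the median of a list and a dashed line for the median of all probes tested. The median of the members was 0.035 for alcohol against water, -0.30 for high against low drinkers and -0.076 for late against early high drinkers.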

How the data were processed

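For each array the file deposited by the authors gives every spot's intensity on a linear scale. Agilent Feature Extraction (10.5.1.1 per the file headers) had removed a spatial background and a multiplicative trend, with no scaling between arrays. Their deposited value table held the same intensity values per probe, with a median log2 difference of 0 from the scanner values, for 41174 of 41250 rows.

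On the log2 scale, each array's 75th percentile over its 43379 non-control spots was subtracted. A spot was set to missing when the software called it a non-uniform outlier, or when its signal was less than 2 times its error. Spots of a probe were averaged. A probe was tested where over 50% of the arrays of each group had a value. limma 3.58.1 in R 4.3.3 (lmFit, eBayes) was fitted on alcohol and water for the first comparison and on 4 groups for the others, and p-values were adjusted by Benjamini-Hochberg over all probes tested. Single genes had 21 exact permutation tests, unadjusted. The steps were tested on simulated data. Figures used matplotlib 3.10.9.

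Of the 10 member probes 8, and of all probes 25089, had an accession in the RefSeq gene table of the mouse, used for names alone. The rest were named as in the files. Among arrays of the same group, 0 pairs had identical values. Precision is limited by the number of arrays, 3 a group.

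The genes and lists were chosen with earlier results of these data known. Named were all members with every probe, of each list up to 4 genes by size of change at an unadjusted p under 0.05 in 3 comparisons (alcohol against water, high against low and late against early), and for each member the 3 genes of highest Pearson correlation. Some genes that this rule names are not reported here. Fgf8 and Prok2 are shown by pool as the largest of their lists among the genes that this rule names, and other list genes were added where a count was small. Markers of preoptic area, arcuate and ventromedial nucleus, pituitary, tanycytes, amygdala, thalamus, striatum, cortex, choroid plexus, blood and oligodendrocytes were summed. Alternatives covered background correction, scaling, the authors' table, filters, slide, replicate block, the methods' t-test, probes, and each array left out.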

Additional observations from a re-analysis of the deposited data

Results flagged for a closer look

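Of all alcohol pools, the second of the low drinkers had by far the highest Pgr. Its signal was -3.16, and its gap to the next pool, low drinker pool 3 at -3.93, was 0.627 of the whole range of the 9 alcohol arrays. The 95% limit of Dixon's test was exceeded by this 1 of 9 probes searched, and chance alone gives about 1 in 20 for each probe searched, so 1 among 9 is not rare. The same array had the highest lower quartile of spot signals (63.2), and the part of that in the value of Pgr was not tested.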

How the results depend on the processing

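In the main analysis 0 member probes were called in each of the 6 comparisons, and this held under every alternative other than leaving out low drinker pool 1. With each array left out in turn, the count ranged from 0 to 1 for low drinkers against water and from 0 to 2 for high against low drinkers. Without low drinker pool 1, 2506 of 30777 and 2505 of 31195 of all probes were called in these comparisons. The replicate numbers of the labels do not pair the pools (correlations of -0.089 to 0.18, 3 of 18 over 0.1). With them as a block, 0 member probes were called in each comparison. Some signs turned. No member difference had passed the adjusted test in the main analysis, so none that passed could turn, and the cause of the turns was not tested. For alcohol against water, normexp gave -0.013 for Gnrh1, and quantile normalization -0.010 for Kiss1 and -0.21 for Esr2. The slide as a fixed block gave 0.075 for Tacr3, -0.058 for Esr2 and -0.037 for Pgr, and the dimmer Tacr3 probe 0.75. With arrays left out, Gnrh1 ranged from -0.094 to 0.13 and Kiss1 from -0.014 to 0.093. For low drinkers against water, the slide block gave -0.037 for Pgr, and for late high drinkers against water the dimmer Tacr3 probe gave 0.26. For high against low drinkers, the dimmer Esr1 probe gave -0.79, quantile normalization 0.20 for Esr2, and left-out arrays -0.041 to 0.065 for Tac2. The dimmer Esr1 probe was well above background on 0 arrays, the dimmer Tacr3 probe on 2, and Esr2 in 0 low drinker pools. The values just given for them show neither a size nor a direction. The same holds for Esr2 in alcohol against water and in late against early high drinkers. For late against early high drinkers, unscaled values were 0.062 for Kiss1, 0.079 for Tac2 and 0.079 for Pgr, and the slide block gave 0.15, 0.11 and 0.079. There normexp gave -0.13 for Esr2 and quantile normalization 0.065 for Pgr. Left-out arrays gave -0.25 to 0.050 for Kiss1, -0.19 to 0.017 for Tac2, -0.042 to 0.16 for Esr1, -0.084 to 0.13 for Esr2 and -0.15 to 0.0072 for Pgr. Without scaling, the median of all probes was 0.12 in late against early drinkers, 0.13 in late high drinkers against water and 0.072 in high against low drinkers, against -0.032, 0.0041 and -0.056 with it. Over all probes, the 57 called for low drinkers against water became 2506 without low drinker pool 1, 1 without pool 2, 6 by quantile normalization and 0 with the slide as a fixed block. The 24 called for high against low drinkers became 2505 without low drinker pool 1, 0 without pool 2, 364 with normexp, 1 by quantile normalization, 0 with the replicate block and 0 among probes well above background on all arrays. From 0 in the main analysis, the count for late high drinkers against water was 403 without late high drinker pool 3 and 64 among those brighter probes, and for late against early high drinkers 194 without early high drinker pool 3 and 103 without late high drinker pool 3. In the 24 changes followed, Kiss1 (high against low) and Tacr3 (late against early and late against water, on the brighter probe) kept their sign under all alternatives. So did Tac2 and Esr1 (alcohol against water), Kiss1 (low against water), Gnrh1, Tacr3 and Pgr (high against low) and Gnrh1 (late against early). Keeping a sign therefore did not set the first ones apart.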
